A study of Mus musculus with 4 samples.

Results

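YAP ChIP-Seq peaks that lie outside every annotated gene were described here. The peak lists of the 2 YAP replicates were combined by joining peaks that overlap by at least 1 bp, which gave 535 joined peaks, of which 493 lay on chromosomes 1 to 19 or X. Of these, 236 overlapped no gene record of any type in the GENCODE vM1 annotation of mm9 and are called peaks outside genes below. The other 257 overlapped at least 1 gene record and are called peaks over genes, and 42 joined peaks on unplaced sequence or chromosome Y were set aside. The choice of the peaks used their position and the gene annotation, and no tag number or score.

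E14Tg2a, an established line of mouse ESCs, was grown undifferentiated and gave all 4 samples of the experiment. Chromatin was precipitated with a rabbit polyclonal antibody against YAP in 2 replicates from independent experiments, and 2 input samples, whose chromatin went through no precipitation, were not analysed here. No treatment or genotype differs between the samples, so no group of cells is compared with another. The authors called peaks in each replicate on its own and, per the list headers, without a control library. Per the same headers, 22696949 of 27762264 mapped reads (tags) were unique in replicate 1, against 14965024 of 18187551 in replicate 2. Unique is the word of the headers, and it is not the measure of sequence occurring once in mm9 used below.

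YAP is a transcriptional coactivator that the kinases of the Hippo pathway keep out of the nucleus. It does not bind DNA by itself and reaches chromatin mainly through the TEAD factors, which recognise the core motif CATTCC. In many mammalian cells YAP and TEAD are found at enhancers far from promoters, so that peaks between genes are part of the usual pattern of this coactivator. Sequence between genes is also rich in repeats, in which a short read can match many places.

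Most peaks outside genes were found in a single replicate. Of the 236 peaks, 178 (75.4%) were found in replicate 1 only, 42 (17.8%) in replicate 2 only and 16 in both. The 16 were 6.78% of the peaks outside genes (95% Wilson interval 4.22% to 10.7%), whereas 44 of the 257 peaks over genes were found in both (17.1%, interval 13.0% to 22.2%). The intervals do not overlap, but they cover counting error only, and peaks of 1 library are not independent samples. With 1 library per replicate, no test between the replicates was possible. Peaks outside genes were 47.9% of the joined peaks on these chromosomes, and sequence outside gene records was 58.8% of the known bases. These shares are unlike measures. A joined peak was left out where 1 bp of it touched a gene record, while bases were counted singly. By the position of the summit alone, 279 of the 493 joined peaks lay outside genes, so the 2 shares do not show that peaks avoid this sequence.

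The sequence under the strongest of the 16 shared peaks is shown first, because several of these peaks resemble each other. The highest tag density in both replicates was at chr9:35112310-35113828, which lay 22890 bp upstream of Gm5614. Replicate 1 had 623 tags there and replicate 2 had 532. Its summit lay in a stretch of 250 bp that was 95.6% identical to a stretch under the summit of another shared peak, chr12:3109303-3110809, which had 356 tags in replicate 1 and 165 in replicate 2. The stretches align without gaps and are given 5′ to 3′ in mm9, with the 11 bases that differ between them in capitals.
chr9:35112834-35113083 (plus strand): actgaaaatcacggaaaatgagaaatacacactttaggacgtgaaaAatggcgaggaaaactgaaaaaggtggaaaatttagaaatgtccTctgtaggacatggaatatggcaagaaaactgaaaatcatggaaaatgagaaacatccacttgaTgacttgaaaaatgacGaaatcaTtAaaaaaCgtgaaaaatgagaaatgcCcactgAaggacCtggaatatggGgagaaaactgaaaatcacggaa
chr12:3109872-3110121 (plus strand): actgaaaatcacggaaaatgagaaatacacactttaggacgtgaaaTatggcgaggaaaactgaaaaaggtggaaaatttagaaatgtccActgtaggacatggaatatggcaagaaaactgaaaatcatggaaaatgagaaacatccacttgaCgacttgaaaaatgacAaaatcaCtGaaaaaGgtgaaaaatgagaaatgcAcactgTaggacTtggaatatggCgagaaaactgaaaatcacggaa
Shifted along themselves, the peaks on chromosomes 9 and 12 matched at no more than 33.6% of bases, under the 50% taken here to mark a tandem repeat. Their best shifts were 234 bp on chromosome 9 and 1 bp on chromosome 12. The share is taken over the whole peak, so a repeat in a part of it can stay under 50%. Both stretches shown end with the run of bases with which they begin. The summit windows of 8 peaks over genes also aligned with this set, among them chr2:98504832-98508183 over Gm10800, with 1962 tags in replicate 1 and 1381 in replicate 2, and 5 peaks over Gm16869 on chromosome 9, found in replicate 2 only, with 96 to 1012 tags. Of these 5, 4 matched themselves best after a shift of 234 bp, at 60.4% to 93.8% of bases. The peak over Gm10800 also matched itself best at 234 bp, at 34.7%. Units of 234 bp are known from the mouse major satellite, a repeat of the pericentromeric heterochromatin. No repeat annotation was used here, so the sequences carry no repeat name in these data. The chromosome 12 peak lay 109302 bp from the first known base of its chromosome, the side of the centromere in the acrocentric mouse chromosomes. Of the 16 shared peaks, 9 had another of the 16 with at least 200 aligned bp at 80% identity or more. The same count was not made for the shared peaks over genes or for the peaks of a single replicate. It therefore does not set the 16 apart from other peaks.

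A further pair was chr10:21861839-21863373, 5256 bp downstream of the start of E030030I06Rik, and chr13:3371733-3373298, 164023 bp upstream of Gdi2, a gene for a regulator of Rab proteins. The peaks shared 1321 aligned bp at 90.5% identity in opposite orientation. On chromosome 10 there were 102 tags in replicate 1 and 96 in replicate 2, and on chromosome 13 there were 68 and 49. The part of the alignment near both summits is shown, with the 10 bases that differ in capitals.
chr10:21862684-21862836 (plus strand): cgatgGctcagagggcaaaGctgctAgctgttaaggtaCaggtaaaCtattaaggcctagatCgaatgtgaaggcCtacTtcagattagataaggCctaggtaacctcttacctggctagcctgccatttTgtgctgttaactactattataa
chr13:3372231-3372383 (minus strand): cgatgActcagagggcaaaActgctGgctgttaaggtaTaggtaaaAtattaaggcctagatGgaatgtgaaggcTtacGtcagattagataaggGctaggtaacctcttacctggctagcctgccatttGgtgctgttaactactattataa

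Other shared peaks also aligned. The peak chr15:74915247-74918130 matched 1177 bp of chr18:3003981-3006352 at 92.2% identity, and 298 bp at 97% identity of chr14:9118453-9119809.

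The 16 shared peaks had higher tag densities than the peaks found in 1 replicate. Tag density is the number of tags per kb of the peak in that replicate and per 1000000 unique tags of the library. Its median was 1.49 in the 178 peaks of replicate 1 only and 1.46 in the 42 peaks of replicate 2 only. In the shared peaks it was 2.65 in replicate 1 (range 1.48 to 18.1) and 3.83 in replicate 2 (range 1.86 to 28.4). The ranges overlap, since the highest peak of replicate 1 only reached 5.03 and that of replicate 2 only 4.49. For the peak near Gm5614 the density was 18.1 in replicate 1 and 28.4 in replicate 2, the highest value of both lists outside genes.

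**Figure D1:**
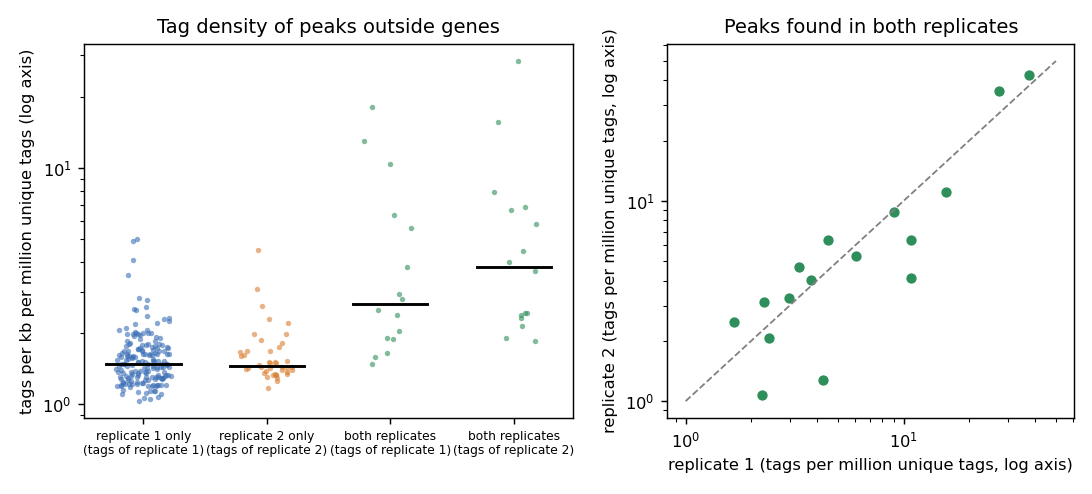
Left, tag density (tags per kb per 1000000 unique tags, log axis) of each peak outside genes, by the replicate that holds it, with bars at the medians (1.49, 1.46, 2.65 and 3.83). Right, tags per 1000000 unique tags in replicate 2 against replicate 1 for the 16 shared peaks (log axes, dashed line at equal values), where 8 points lie above the line and 8 below.

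The second highest of the shared peaks was chr15:74915247-74918130, downstream of the start of Ly6c2, a gene of the Ly6 family of small surface proteins. It had 856 tags in replicate 1 and 640 in replicate 2, the most of any peak outside genes in each replicate. Its densities were 13.1 and 15.7. The peak upstream of Pak3, a gene for a kinase that acts downstream of small GTPases, at chrX:139916969-139918356, had 75 tags in replicate 1 and 70 in replicate 2. Because the peak was shorter in replicate 2 (681 bp against 1388 bp), its densities were 2.38 and 6.87. The peak chr3:5859670-5861375, 283431 bp upstream of Pxmp3, which encodes a peroxisome assembly factor, had densities of 6.33 and 6.64. The peak chr6:3150184-3152116, 197455 bp downstream of the start of Samd9l, had 5.58 and 4.46.

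The size of the difference between the replicates depended on the length used. Each density above is over the length called in its own replicate, and 14 of the 16 shared peaks were shorter in replicate 2 (median 1180 bp against 1513 bp). Over these lengths replicate 2 was higher at 13 peaks, and the log2 ratio of replicate 2 over replicate 1 had a median of 0.26 and an SD of 0.47 over the 16 peaks. With the same length set for both replicates, the ratio is that of tags per unique tag. By this measure replicate 2 was higher at 8 peaks and lower at 8, and the median was 0.03 (SD 0.72). The tags remained those of the peak called in each replicate and were not counted again over 1 interval. A shorter call can thus lower the ratio. This measure, added after the data were seen, was used for the values that follow. They ranged from 0.56 at chr11:53953535-53954865, near P4ha2, to -1.75 at chr8:72084886-72087145. The latter had 97 tags over 2260 bp in replicate 1 and 19 over 589 bp in replicate 2. The peaks chr6:3150184-3152116 (-1.38, 245 and 62 tags) and chr7:58245312-58246722 (-1.07, 51 and 16 tags) also differed by more than 1, and the peak near Pak3 had 0.50. In the 44 shared peaks over genes the median was -1.32 (SD 0.92), replicate 2 was higher at 9 and 27 differed by more than 1. Of these 44, 34 were shorter in replicate 2. The same 2 libraries gave both medians, and no test of their difference was possible.

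The remaining members of the 10 shared peaks with the highest mean density were chr18:3003981-3006352 (205 and 132 tags), chr14:9118453-9119809 near Acox2 (85 and 60 tags) and chr3:8244696-8247125, 262402 bp upstream of Stmn2 (138 and 79 tags). Acox2 encodes an enzyme of peroxisomal oxidation, and Stmn2 a microtubule regulator of neurons. The other 6 shared peaks had 38 to 97 tags in replicate 1 and 16 to 49 in replicate 2.

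Peaks outside genes held a small share of each library. Together they had 11163 tags in replicate 1, or 0.0492% of its unique tags (95% Wilson interval 0.0483% to 0.0501%), and 3101 tags in replicate 2, or 0.0207% (0.0200% to 0.0215%). Peaks over genes held 0.156% and 0.0833%. The median number of tags of a peak outside genes was 36 in replicate 1 (range 18 to 856) and 21 in replicate 2 (range 15 to 640), against 83 and 54.5 over genes. They were also shorter, with a median joined length of 1064.5 bp against 1476 bp. The score of a peak is the negative log10 of its p-value times 10, so that the cutoff of the lists lies at 50. The median score was 61.2 in replicate 1 and 58.3 in replicate 2, near that cutoff, and 31 peaks outside genes remained when a score of at least 100 was required in each list. Of these 31, 9 reached that score in both replicates.

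Among peaks of replicate 1 only, the most tags were at chr8:56196716-56209185, 156635 bp downstream of the start of Gpm6a, a gene for a neuronal membrane glycoprotein. It had 797 tags over 12470 bp, the longest peak outside genes, with a fold enrichment of 3.06, the lowest of replicate 1. The 25-mers of this peak had a median of 7 copies in mm9. The next were chr5:15050934-15055203 (251 tags), chr12:98299477-98300623 (131 tags), chr5:15176455-15178379 (103 tags) and chr6:49185747-49187300 (98 tags). The last lay 20794 bp upstream of Igf2bp3, which encodes an RNA-binding protein, and 6620 bp from Tra2a, a gene for a splicing factor. None of these had a peak in replicate 2.

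Peaks of replicate 2 only were smaller. The most tags were 56 at chr9:123832849-123834544 and 46 at chr2:181651716-181653056. Next came chr9:123840935-123842064 and chrX:166445350-166446913 with 44 tags each, and chr17:4626122-4627029 with 42 tags, 367303 bp upstream of Arid1b, a gene for a subunit of the BAF chromatin remodelling complex. Those on chromosomes 2, 9 and X lay within 1 Mb of the last known base of their chromosome.

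Of the 31 peaks with a score of at least 100, the 21 found in a single replicate had 19 to 131 tags. After the peak on chromosome 12, the highest scores of replicate 1 only were at chr11:92624018-92624662, chr2:51860063-51860312 and chrX:147095913-147096615. The first had 72 tags and a score of 298.36 and lay 334680 bp from the TSS of Car10, a gene of the carbonic anhydrase family. The second was the shortest of all peaks outside genes, at 250 bp, and had 20 tags, a score of 275.84 and a distance of 31049 bp from the TSS of Nmi, a gene for a partner of Myc and STAT proteins. The third had 65 tags and a score of 264.57 and lay 3787 bp from the TSS of Tro, which encodes the adhesion protein trophinin. In these 3 peaks 50.4% to 71.8% of the 25-mers occurred once in mm9, but near the summit 24.3%, 50.3% and 0% did. There the 25-mers of the first and the third had a median of 1132722 copies.

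Peaks outside genes were found on every chromosome considered. Their number ranged from 3 on chromosome 19 to 18 on chromosome 14, or from 4.89 to 14.4 per 100 Mb. On chromosome 11 there were 10 peaks outside genes and 26 over genes, and on chromosome 14 there were 18 and 9.

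Peaks near the ends of the chromosomes were unevenly held by the replicates. The first and last 1 Mb of known sequence of each chromosome made up 1.55% of the sequence and held 17 of the 236 peaks outside genes (7.20%, interval 4.55% to 11.2%). By replicate, these were 5 of 178 peaks of replicate 1 only (2.81%), 7 of 42 of replicate 2 only (16.7%) and 5 of the 16 shared peaks (31.2%). Of the 7 of replicate 2 only, 6 lay at the last base side, and of the 5 shared peaks, 4 lay at the first base side. Over genes, 12 of 257 peaks lay in these ends (4.67%). These were 3 of 171 of replicate 1 only (1.75%), 8 of 42 of replicate 2 only (19.0%) and 1 of the 44 shared (2.27%). Of the 8 of replicate 2 only over genes, 6 lay at the first base side and 2 at the last base side, on 3 chromosomes. They include the neighbouring peaks over Gm16869 on chromosome 9 named above. The share in replicate 2 only was thus higher in both classes of peaks, but mostly at opposite sides of the chromosomes. Without the ends, 11 of 219 peaks outside genes were shared (5.02%).

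The distance to the nearest TSS of a coding gene was long and close to that of the sequence outside genes at large. The median distance was 98154 bp, from the nearest edge of the peak, with a range of 691 to 2139649 bp. When the genome outside genes was cut into tiles of 201 bp, the median distance of a tile was 106504 bp. Peaks over genes lay at a median of 17221 bp. By replicate, the median was 111986 bp in replicate 1 only, 86065 bp in replicate 2 only and 43363 bp in the 16 shared peaks, which ranged from 5256 to 283431 bp.

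In bands of distance, 14 peaks outside genes (5.93%) lay within 5 kb of a coding TSS, 76 (32.2%) between 5 and 50 kb, 120 (50.8%) between 50 and 500 kb and 26 (11.0%) at 500 kb or more. The tiles gave 5.86%, 29.0%, 49.7% and 15.5%. The first 3 bands differ from the tiles by less than 4 percentage points. Upstream of the nearest coding gene lay 143 peaks, and downstream of its start 93. The choice of peaks left out every gene body, which lies downstream of the start, so these counts show no preference for a side. Of the peaks over genes, 69 lay upstream, 123 downstream and 65 over the TSS. The tiles were not split by side.

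**Figure D2:**
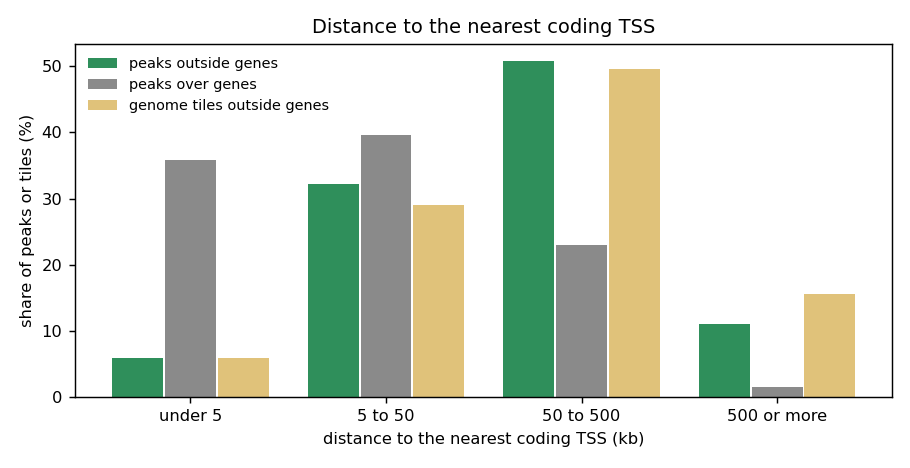
Share of the 236 peaks outside genes, the 257 peaks over genes and the genome tiles outside genes in bands of distance to the nearest coding TSS (kb). Peaks outside genes follow the tiles (5.93% against 5.86% within 5 kb), while 35.8% of the peaks over genes lie within 5 kb.

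The peak nearest to a coding TSS was chr7:110963201-110963978, 691 bp upstream of Hbb-b2, which encodes an adult beta globin. It had 29 tags in replicate 1. The next lay 735 bp upstream of B3gat1, a glucuronyltransferase gene, with 20 tags, and 1418 bp upstream of Gm4981, with 82 tags. All 3 were found in replicate 1 only. The farthest were chr1:104524500-104525457, 2139649 bp upstream of the cadherin gene Cdh20 (41 tags, replicate 1 only), chr5:60433653-60434429, 1765653 bp upstream of G6pd2 (39 tags, replicate 1 only), and chr10:48025270-48026203, 1482369 bp from the start of Grik2, a glutamate receptor gene (20 tags, replicate 2 only).

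Peaks outside genes rarely stood in groups. Only 9 (3.81%) had another peak outside genes within 50 kb and 13 (5.51%) had any joined peak within 50 kb, whereas 87 of the 257 peaks over genes did (33.9%). The median gap between neighbours on a chromosome was 8322904 bp. The 9 peaks formed 4 sets. The largest held 3 peaks around Gm17019 on chromosome 5, between Gm10354 and Speer4d, with 16 tags in replicate 2 at chr5:15006472-15007262, and 251 and 28 tags in replicate 1 at chr5:15050934-15055203 and chr5:15061765-15062784. The 25-mers of each of these had a median of 3 copies in mm9. The other sets were pairs: 31 and 32 tags of replicate 1 on chromosome 14 between Nefm and Adam7, 46 and 24 tags of replicate 2 on chromosome 2 between Polr3k and Gm14496, and 56 and 44 tags of replicate 2 on either side of Gm4694, between the chemokine receptor genes Xcr1 and Ccr1 on chromosome 9. No shared peak belonged to a set.

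A tag can be placed with certainty only where its sequence occurs once. The authors kept reads with up to 100 positions and gave each alignment a weight of 1 over its number of positions. Of the 25-mers of a peak outside genes, which have the tag size of the headers, a median of 66.9% occurred once in mm9, against 75.3% over genes. The median was 59.3% in peaks of replicate 1 only, 89.9% in those of replicate 2 only and 50.2% in the shared peaks. Fewer than 20% of 25-mers occurred once in 46 of the 178 peaks of replicate 1 only, in 2 of the 42 of replicate 2 only and in 0 of the 16 shared peaks. At least 90% did in 19, 21 and 0. All 16 shared peaks therefore held repeated sequence, at 25.4% to 80.5% of 25-mers occurring once.

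**Figure D3:**
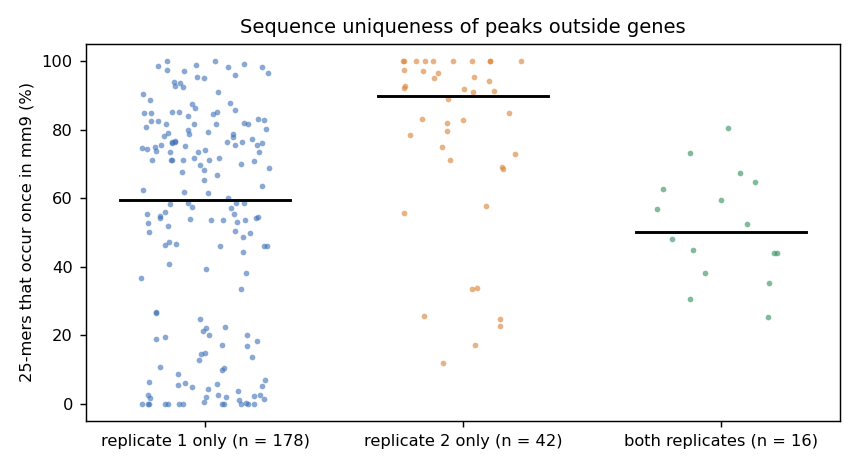
Share of the 25-mers of each peak outside genes that occur once in mm9 (%), by the replicate that holds the peak, with bars at the medians (59.3%, 89.9% and 50.2%). Peaks near 0% stand mostly in the column of replicate 1 only, and the 16 shared peaks lie between 25.4% and 80.5%.

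In 33 peaks, all of replicate 1 only, at least 50% of the 25-mers had more than 100 copies (14.0% of the peaks outside genes, against 5.84% over genes). A read of 25 bp from such a 25-mer would have more positions than the 100 that the authors allowed. The copies thus do not show how tags were placed in these peaks or at the summits near Car10 and Tro. How they were placed was not tested. Among the 33 were 9 peaks in which the sequence matched itself best after a shift of 208 or 212 bp, at 52.5% to 96.5% of bases, which marks a tandem repeat. They had 24 to 48 tags, scores of 50.7 to 60.3, and 33.2 to 66.0 CpG per kb against a median of 6.55 in all peaks outside genes. Tandem units of this length are known from the promoters of young L1 retrotransposons, but no repeat annotation was used here. The nearest coding genes were Rarb, Sdc2, Lrp12, Fshr, Rfx3, Rwdd3, Gm17527, Kcnip4 and Rai2, at 4191 to 615588 bp. Peaks over genes of replicate 1 only had these shifts too. Among them were chr14:77476428-77477506 (208 bp, 93.5% of bases) and chr4:88021897-88022924 (212 bp, 79.3%).

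Of all 236 peaks, 41 had a summit window (201 bp) that aligned with that of another joined peak over at least 100 bp at 80% identity or more. These were 7 of the 16 shared peaks, 34 of replicate 1 only and 0 of replicate 2 only, in 21 sets. Many sets also held peaks over genes, and the largest had 2 peaks outside genes and 8 over genes. The share among all peaks over genes is not given here, so the count does not set the peaks outside genes apart. Peaks outside genes had a median GC content of 41.7% and 6.55 CpG per kb, against 45.8% and 17.5 CpG per kb over genes. No peak outside genes matched 60% or more of the length of any of the 3305 annotated snRNA, snoRNA and rRNA genes. Peaks over such a gene record had already been left out by the choice of peaks, and matches to less than 60% of a gene are not described here. The absence of long matches thus does not show that these peaks lack sequence resembling such genes.

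In 5 peaks outside genes, all of replicate 1 only, more than 5% of the 25-mers also occurred in the mitochondrial genome, and in each of them the summit lay in the matching part. Nuclear copies of mitochondrial DNA are a known feature of mammalian genomes. The highest was chr12:98299477-98300623, the third in tags of replicate 1 only, with 131 tags and the highest score of replicate 1 only (322.86). It lay 1014045 bp upstream of 1700019M22Rik, and 365 bp of it were 99.7% identical to positions 15675 to 16039 of the mitochondrial genome. No annotated gene lies there, and this stretch is part of the control region, where mitochondrial replication and transcription start. The second, chr6:9839769-9840751, with 45 tags and a score of 124.82, lay 941338 bp from the start of the neurexophilin gene Nxph1 and matched positions 15607 to 15916 at 95.5% identity. The 2 nuclear stretches are shown with the 6 bases that differ in capitals, the second on the minus strand.
chr12:98299638-98299879 (plus strand): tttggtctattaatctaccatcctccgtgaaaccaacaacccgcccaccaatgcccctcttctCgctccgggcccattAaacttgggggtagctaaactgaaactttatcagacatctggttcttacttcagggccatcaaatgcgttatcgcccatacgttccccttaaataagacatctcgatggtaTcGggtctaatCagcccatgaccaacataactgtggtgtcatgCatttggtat
chr6:9839893-9840134 (minus strand): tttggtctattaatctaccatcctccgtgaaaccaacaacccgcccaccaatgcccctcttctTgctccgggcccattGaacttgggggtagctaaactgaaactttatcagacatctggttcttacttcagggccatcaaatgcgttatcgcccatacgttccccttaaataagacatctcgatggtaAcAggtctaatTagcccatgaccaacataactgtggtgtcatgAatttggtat
The other 3 were chr13:85266044-85267329 (49 tags), which matched 955 aligned bp of mt-Nd5 at 95.2% identity, chr5:60433653-60434429 (39 tags), which matched mt-Nd2 and 4 tRNA genes at 97.9%, and chr2:69192929-69194408 (60 tags), which matched 129 bp over mt-Nd4 and 2 tRNA genes at 100%. Tags from mitochondrial DNA and from the nuclear copies cannot be told apart where the sequences are identical, and the mitochondrial share of these tags was not tested. Among peaks over genes, 2 had such sequence.

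The TEAD core was found at about the same share of summits as of other sequence outside genes. CATTCC, read on both strands, was found within 100 bp of the summit in 27 of the 236 peaks (11.4%, interval 7.98% to 16.1%). Windows 2000 bp to the left and to the right had it in 11.9% and 10.6%, peaks over genes in 9.73%, and all 7452939 tiles of 201 bp outside genes in 11.1%. By replicate it was in 15 of 178 peaks of replicate 1 only (8.43%), 8 of 42 of replicate 2 only (19%, interval 9.98% to 33.3%) and 4 of the 16 shared peaks (25%, interval 10.2% to 49.5%). The intervals of both include the tile share. The shared peaks with the motif were chr13:3371733-3373298, chr6:3150184-3152116, chr8:72084886-72087145 and 1 on chromosome 18, and for the 16 the share was 12.5% in the windows to the left and 25% in those to the right. For replicate 2 only it was 7.14% and 11.9%.

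The AP-1 motif TGANTCA, bound by Fos and Jun, was in 4.24% of the summit windows and 6.0% of the tiles. It was in 2.25% of the windows of replicate 1 only (interval 0.877% to 5.63%), which leaves out the tile share, and in 11.9% of those of replicate 2 only. In the 40 peaks with at least 90% of 25-mers occurring once it was in 5 (12.5%, interval 5.46% to 26.1%), against 2.5% to the left and 0% to the right. This interval includes the tile share. The octamer ATGCAAAT, bound by Oct4, was in 2.12% and 1.95%, the SOX motif CATTGT in 8.47% and 13.2%, and the STAT motif TTCNNNGAA in 6.36% and 7.94%. The reversed TEAD core CCTTAC, a control with the same base content, was in 4.66% and 6.24%. CATTCC and CATTGT share their first 4 letters and were counted separately. Over all 236 peaks, SOX was the 1 motif whose interval (5.55% to 12.7%) left out the tile share, on the lower side.

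**Figure D4:**
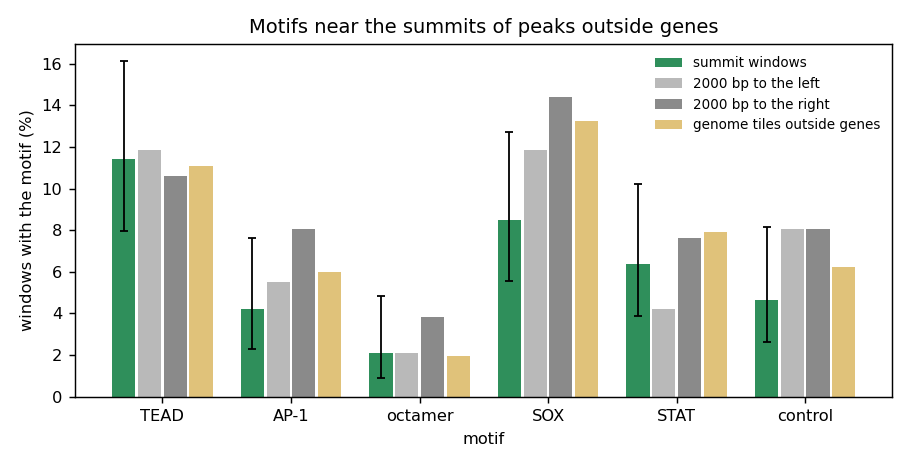
Share of windows of 201 bp with each motif (%), for the summits of the 236 peaks outside genes (with 95% Wilson intervals, counting error only), for windows 2000 bp to the left and right, and for genome tiles outside genes. For TEAD the bars stand at 11.4%, 11.9%, 10.6% and 11.1%.

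The most copies of the TEAD core were in chr17:4626122-4627029, found in replicate 2 only with 42 tags and a score of 112.63. Its summit window held the motif 30 times, in an array of a 5-bp unit, and is shown with the motif in capitals (both strands read).
chr17:4626228-4626428 (plus strand): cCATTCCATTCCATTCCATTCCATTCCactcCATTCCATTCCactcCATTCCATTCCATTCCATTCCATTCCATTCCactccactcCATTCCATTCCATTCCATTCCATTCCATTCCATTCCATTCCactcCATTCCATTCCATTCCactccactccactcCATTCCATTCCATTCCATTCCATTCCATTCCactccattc
In 6 of the 40 peaks in which at least 90% of 25-mers occurred once, the motif was within 100 bp of the summit (15%, interval 7.06% to 29.1%). The 3 of these with the most tags are shown because their tags can be placed and their windows hold the motif, again in capitals. The first lay 38478 bp from the TSS of Pim1, a serine/threonine kinase gene and known target of STAT signalling, and had 58 tags in replicate 1. The second lay 3932 bp from the TSS of Zbtb45 and 9107 bp upstream of the TSS of Trim28, with 48 tags in replicate 1. The third lay 136735 bp from the TSS of Lyplal1, with 35 tags in replicate 1.
chr17:29588273-29588473 (plus strand): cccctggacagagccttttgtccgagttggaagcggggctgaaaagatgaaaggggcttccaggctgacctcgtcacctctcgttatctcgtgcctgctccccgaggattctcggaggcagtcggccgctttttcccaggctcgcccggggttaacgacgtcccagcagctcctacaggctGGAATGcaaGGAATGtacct
chr7:13599511-13599711 (plus strand): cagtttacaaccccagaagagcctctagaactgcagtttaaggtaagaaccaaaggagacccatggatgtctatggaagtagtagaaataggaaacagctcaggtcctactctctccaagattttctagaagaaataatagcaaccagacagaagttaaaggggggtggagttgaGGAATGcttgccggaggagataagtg
chr1:188078466-188078666 (plus strand): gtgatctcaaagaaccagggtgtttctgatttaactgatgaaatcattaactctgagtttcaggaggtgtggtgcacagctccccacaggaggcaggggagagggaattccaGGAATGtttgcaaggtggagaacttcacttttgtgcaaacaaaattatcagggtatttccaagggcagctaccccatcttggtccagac
None of the 3 had a peak in replicate 2. A peak of replicate 2 only with the motif, chr11:108872875-108873410, lay 91212 bp from the TSS of Axin2, a feedback gene of Wnt signalling, and had 36 tags and a score of 187.16, the highest of replicate 2 only.

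Few genes of the YAP pathway or of pluripotency lay near these peaks. Of 22350 coding genes, 315 (1.41%) had a peak outside genes within 100 kb of the TSS. Among 30 YAP and TEAD target genes, of which 29 were found in the annotation by symbol, 0 had one. The closest were Amotl1, which encodes a YAP-binding protein of cell junctions, at 197663 bp from a peak with 46 tags in replicate 1, and Dock5 at 358761 bp. Of 21 Hippo pathway genes, which encode the kinases and junction proteins upstream of YAP, 0 had one, and the closest was the kinase gene Lats1 at 393732 bp. The median distance from a gene to the nearest peak outside genes was 2451875 bp for the targets, 3289348 bp for the Hippo pathway and 4262076 bp for all coding genes.

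Of 25 pluripotency genes, 24 of them found by symbol, 1 had a peak outside genes within 100 kb. This was Tbx3, a T-box transcription factor gene of naive ESCs, at 33048 bp from chr5:120153726-120154584, with 32 tags in replicate 1. Of 10 genes of DNA methylation, 1 had one, namely Trim28, which encodes a corepressor at methylated imprints and retroviral repeats, at 9107 bp. Dnmt3a, a de novo DNA methyltransferase gene on chromosome 12, lay 695198 bp from the shared peak chr12:3109303-3110809. With lists of this size, 1.41% corresponds to fewer than 1 gene in each, so that counts of 0 and 1 do not set these lists apart from all coding genes.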

How the data were processed

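YAP ChIP-Seq was analysed in 2 replicates of E14Tg2a ESCs from the lists of peaks deposited by the authors, and the 2 input samples were not analysed here. With bowtie the authors aligned reads to mm9, keeping reads with at most 2 mismatches and up to 100 positions and weighting alignments by the inverse of the hits, and MACS called the peaks. Per the file headers, the p-value cutoff was 1e-05, the tag size 25 and the band width 300, with no control library. Tags per peak are a count, not scaled to depth by the authors. The score that the authors deposited is 10 times the −log10 of the p-value. Fold enrichment, also deposited, is a ratio of tags to the local background. Start, end, length and summit are positions the authors deposited, and they were read as 1-based.

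Peaks of the lists were joined at an overlap of 1 bp, and those on chromosomes 1 to 19 and X without a GENCODE vM1 gene record were kept. Sequence was read from NCBIM37, which is mm9. Copies of each 25-mer were counted on both strands over the whole assembly. Tandem units were sought at shifts of up to 600 bp. Summit windows and mitochondrial matches were aligned with blastn 2.17.0 at an E-value of 1e-10. Motifs were searched within 100 bp of the summit on both strands. Intervals are 95% Wilson intervals. No test was run, since each replicate is 1 library and peaks are not independent samples.

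The peaks and gene lists were chosen with earlier results of these data known. Named peaks were, by rule, the 10 shared peaks with the highest mean density, the 3 nearest and 3 farthest from a coding TSS, the 5 with the most tags in each replicate alone, and the largest set within 50 kb. Genes were the nearest coding genes, listed genes within 100 kb and the coding genes on either side of a set. The other sets, the sequence pairs, the tandem, mitochondrial and chromosome-end counts, and the peaks near Pim1, Lyplal1, Axin2, Car10, Nmi and Tro were chosen after their values were seen. The scripts used matplotlib 3.10.9, numba 0.67.0, networkx 3.6.1, scipy 1.17.1, pandas 2.3.3, numpy 2.4.6 and Python 3.11.15. Joining, distances, k-mer counts, tandem units and motifs were tested on simulated data.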

Additional observations from a re-analysis of the deposited data

Results flagged for a closer look

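Peaks outside the comparisons above were also present. Of the 42 joined peaks on unplaced sequence or chromosome Y, which could not be set against the gene annotation, 32 were found in replicate 1 only, 4 in replicate 2 only and 6 in both (14.3%). The highest number of tags in one of them was 885. They were set aside by position and are listed here because the comparisons did not use them.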

How the results depend on the processing

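The score limit moved most values. At a score of at least 100 in each list, 31 peaks outside genes remained, 29.0% of them were shared, the median distance to a coding TSS was 125802 bp, 0 had another within 50 kb, and the median density was 2.53 in replicate 1 and 5.14 in replicate 2. Leaving out each replicate gave 58 to 194 peaks, a median distance of 72108 to 106225 bp, 4 with another within 50 kb, 58.5% to 76.7% of 25-mers occurring once, and the TEAD core in 9.79% to 17.2%. Within 100 kb, 15 had another peak outside genes. The TEAD core was in 3.81% within 50 bp of the summit and in 22.5% within 250 bp. With at least 50% of 25-mers occurring once, the density in replicate 2 was 1.51, and per kb of the joined peak, an alternative added after seeing the data, it was 1.52, while the median log2 ratio of the replicates was 0.03 in place of 0.26. Of 42 alternatives, 26 kept the value within the spread between replicates, the counting interval or 1.5 times the count, and 16 did not. For the log2 ratio the spread was its SD over the 16 shared peaks (0.47), so the change to 0.03 counted as kept. Only the alternatives of this ratio had a direction to turn, and 0 of them did. The 2 other additions after seeing the data, leaving out chromosome ends and repeated sequence, gave shared shares of 5.02% and 5.19%.

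Replicate 2 had fewer unique tags, and the part of depth in the peaks of replicate 1 only was not tested. No paired analysis was possible because values of the YAP libraries alone were used here.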
